A study of Mus musculus with 10 samples.

Results

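The adrenergic receptor genes are the genes of the G protein-coupled receptors for noradrenaline and adrenaline. The 8 analysed here were Adra1a, Adra1b and Adra1d (alpha1 receptors), Adra2a, Adra2b and Adra2c (alpha2 receptors), and Adrb1 and Adrb3 (beta receptors). The members are defined by name, by a rule that uses no measured value, as the rows of a table of 51789 genes whose Ensembl identifier carries 1 of these symbols in the GENCODE M21 annotation. All 8 had a row, and 4 of them (Adra1a, Adra1b, Adra1d and Adrb1) passed the filter on low counts that kept 15232 genes for testing. RNA-seq was performed on cardiomyocytes isolated from mouse hearts on day 4 after surgical myocardial infarction (MI). TgGRK5-MI mice carried a transgene that overexpressed the receptor kinase GRK5 in cardiomyocytes only, and NLC-MI mice were their non-transgenic littermate controls. Each group had 5 libraries, each from 1 mouse, and every mouse of both groups had an infarct, so the comparison shows the effect of the transgene after MI and not that of MI itself. The study used young adult mice of both sexes, while Xist was below the Y-linked genes in all 10 libraries. The promoter of the transgene and the strain of the mice are not given in the sources used here.

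Alpha1 receptors couple to Gq and phospholipase C and are linked to growth and survival signals of cardiomyocytes, in which Adra1a and Adra1b are the main subtypes. Beta receptors couple to Gs and adenylyl cyclase, and the beta1 receptor, encoded by Adrb1, is the main driver of rate and force in the heart. Alpha2 receptors couple to Gi and are known chiefly from sympathetic nerve endings, where they restrain noradrenaline release. GRK5 is one of the kinases that phosphorylate agonist-bound receptors of this family so that arrestins can bind them, which makes the level of the receptor transcripts in TgGRK5 cardiomyocytes of interest.

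Promoter sequences are shown for the 3 receptor genes with the lowest p in the comparison of the groups, Adra1b, Adrb1 and Adra2b. They are RefSeq sequences on GRCm38.p6, each with 250 bases before the start of transcription and 50 from it, written 5′ to 3′. RefSeq promoters matched 5 of the 8 genes, with 6 sequences in all. Those of Adra2a and Adra2c are not printed, and Adra1a, Adra1d and Adrb3 had no match. Capitals mark matches, on either strand, to any of the motifs searched, which were the cyclic AMP response element (CRE, TGACGTCA), the shorter CRE core (TGACG, which a full CRE also contains), the NFAT core (GGAAA), the GATA site (AGATAA), the MCAT element (CATTCC), the GC box (GGGCGG), the TATA box (TATAAA) and the MEF2 box. Adra1b has a pair of annotated starts, one at the 5′ end of the gene and the other within it, and both are shown because counts per gene cannot tell them apart.
Adra1b, start within the gene, chr11:43836440-43836739, minus strand: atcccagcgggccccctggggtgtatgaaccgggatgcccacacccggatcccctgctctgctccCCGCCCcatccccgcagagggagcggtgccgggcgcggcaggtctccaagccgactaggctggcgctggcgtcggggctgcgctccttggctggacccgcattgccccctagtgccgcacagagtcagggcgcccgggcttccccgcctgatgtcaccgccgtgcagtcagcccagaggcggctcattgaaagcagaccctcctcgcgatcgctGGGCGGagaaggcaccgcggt
Adra1b, start at the 5′ end of the gene, chr11:43901188-43901487, minus strand: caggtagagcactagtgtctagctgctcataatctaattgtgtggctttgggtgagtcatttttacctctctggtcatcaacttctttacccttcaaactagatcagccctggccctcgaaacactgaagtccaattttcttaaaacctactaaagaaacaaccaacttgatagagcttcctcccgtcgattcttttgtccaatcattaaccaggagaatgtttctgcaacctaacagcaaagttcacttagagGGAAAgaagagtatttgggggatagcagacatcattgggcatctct
Adrb1, chr19:56721867-56722166, plus strand: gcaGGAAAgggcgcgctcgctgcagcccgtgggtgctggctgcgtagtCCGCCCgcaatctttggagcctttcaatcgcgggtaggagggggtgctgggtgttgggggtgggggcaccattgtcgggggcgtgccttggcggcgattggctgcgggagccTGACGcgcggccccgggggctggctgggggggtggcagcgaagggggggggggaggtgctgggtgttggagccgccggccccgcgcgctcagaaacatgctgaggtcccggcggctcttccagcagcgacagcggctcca
Adra2b, chr2:127362929-127363228, plus strand: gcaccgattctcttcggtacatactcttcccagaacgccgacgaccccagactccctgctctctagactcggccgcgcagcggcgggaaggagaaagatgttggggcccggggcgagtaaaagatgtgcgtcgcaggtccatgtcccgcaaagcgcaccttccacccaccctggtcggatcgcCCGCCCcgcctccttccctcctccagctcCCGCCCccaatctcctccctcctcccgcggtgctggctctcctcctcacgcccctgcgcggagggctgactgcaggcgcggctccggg

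The inner Adra1b promoter was 71.3% G and C, higher than in 92.2% of 32817 promoters, and held 2 GC boxes, a motif present in 35.6% of all promoters. The Adra1b promoter at the 5′ end of the gene was 42.3% G and C, higher than in 14.9% of promoters, and its single match was an NFAT core, a motif present in 61.3%. The Adrb1 promoter (72.3% G and C) held 1 CRE core (20.8% of promoters), 1 NFAT core and 1 GC box. The Adra2b promoter (68% G and C) held 2 GC boxes. None of the 4 sequences held a full CRE (1.79% of promoters), a MEF2 box (0.558%), a GATA site (11.2%), an MCAT element (14.7%) or a TATA box (13.6%). These matches describe the letters of the windows and are not binding sites shown by these data.

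Libraries held from 7968779 to 23381527 counts, with group medians of 20540815 (NLC-MI) and 18337488 (TgGRK5-MI). Values are CPM, which are counts scaled to library size with edgeR's TMM factors, and 3 counts, the smallest amount taken to be detectable, corresponded to 0.121 to 0.393 CPM. Grk5, the gene of the overexpressed kinase, lay at 46.5 to 73.1 CPM in the NLC-MI libraries and at 552 to 1700 CPM in the TgGRK5-MI libraries. With edgeR's quasi-likelihood test its log2 fold change was 4.34 ± 0.32 (standard error) at an adjusted p of 0.000245. All log2 fold changes are TgGRK5-MI minus NLC-MI.

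Levels of different genes were compared as CPM per kilobase of annotated exon. On this scale Adra1b was the highest receptor gene in NLC-MI, with 6.91 ± 2.58 (SD, n = 5), followed by Adrb1 with 3.93 ± 1.14, Adra1a with 1.14 ± 0.64 and Adra1d with 1.04 ± 0.27 (SD, n = 5). In TgGRK5-MI the order of the means was the same, with Adra1b at 3.22 ± 1.01, Adrb1 at 2.63 ± 0.86, Adra1a at 1.01 ± 0.46 and Adra1d at 0.81 ± 0.44 (SD, n = 5). The levels of Adra1b and Adrb1 overlapped in both groups, as did those of Adra1a and Adra1d. Within single libraries, Adra1b was above Adrb1 in 5 of 5 NLC-MI libraries and in 4 of 5 TgGRK5-MI libraries. The distance of Adra1a from Adra1d rests on the length taken, since Adra1a has 8728 bases of exon over its 6 transcripts and 4282 in the longest one. Divided by the latter, Adra1a was at 2.32 and 2.05 CPM per kilobase in the respective groups, and the order of the 4 highest means did not change. Within single libraries Adra1b was then above Adrb1 in 5 of 5 NLC-MI and 3 of 5 TgGRK5-MI libraries. Adra2b followed far below, with 0.167 ± 0.064 in the controls and 0.0837 ± 0.0367 in the transgenic libraries (SD, n = 5), and no Adra2b value reached the lowest Adra1d value of its group. Adra2a, Adra2c and Adrb3 had means of at most 0.0725 in either group and overlapped one another in NLC-MI.

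**Figure D1:**
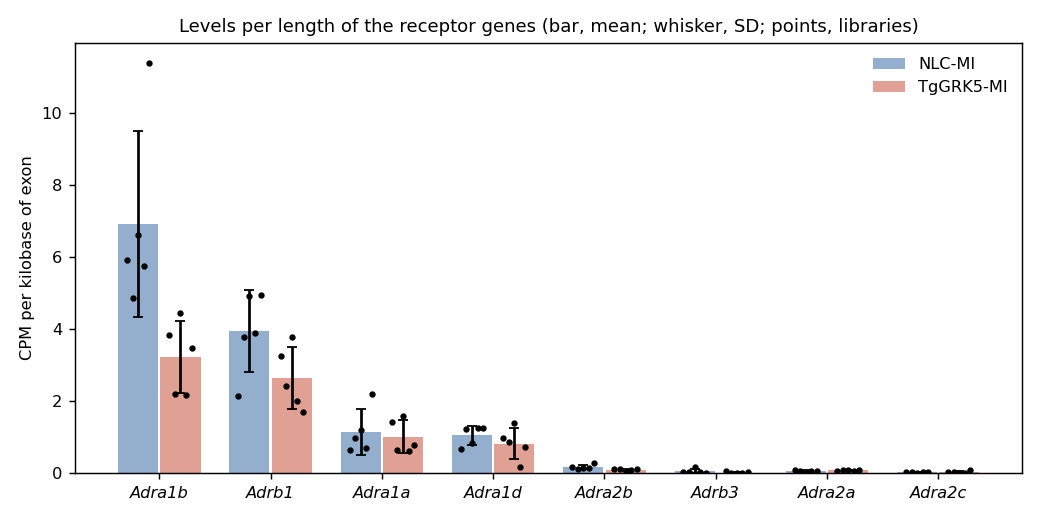
Level per length of the 8 receptor genes (y axis, CPM per kilobase of exon), with bars for the mean of 5 libraries of NLC-MI (blue) and TgGRK5-MI (red), whiskers for the SD and black points for single libraries. Adra1b stood highest in both groups, with means of 6.91 (NLC-MI) and 3.22 (TgGRK5-MI), and the 4 genes on the right were near 0.

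Adra1b was the receptor gene that differed most clearly between the groups. Its gene (ENSMUSG00000050541) spans chr11:43774606-43901210 on the minus strand, with 4 annotated transcripts. In NLC-MI replicates 1 to 5 it lay at 20.0, 16.4, 22.4, 19.5 and 38.5 CPM, and in TgGRK5-MI replicates 1 to 5 at 13.0, 7.42, 15.04, 7.33 and 11.7 CPM. The 2 groups did not overlap, and NLC-MI replicate 5 stood well above its group. The means were 23.4 ± 8.72 and 10.9 ± 3.43 CPM (SD, n = 5), so that TgGRK5-MI retained 46.6% of the NLC-MI level. The log2 fold change was -1.10 (standard error 0.28, 95% interval -1.70 to -0.50). Its unadjusted p was 0.00191, and edgeR's quasi-likelihood test with Benjamini-Hochberg adjustment over all genes tested gave an adjusted p of 0.51, which missed the threshold of 0.10. The exact two-sided permutation test of the mean log2 CPM gave p = 0.00794, and groups of 5 cannot reach a smaller one. DESeq2's Wald test on the same genes gave an adjusted p of 0.0536, which passed the threshold.

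Of all genes tested, 0.0788% had an adjusted p under 0.10 with edgeR (0.0263% lower and 0.0525% higher in TgGRK5-MI), and 0 of the 4 receptor genes tested were among them. With DESeq2 0.447% of genes passed, among which the genes lower in TgGRK5-MI made up 0.171% of all genes tested. At an unadjusted p under 0.05, 1 of the 4 receptor genes tested was lower and 0 were higher, against 2.08% and 1.77% of all genes tested. The groups did not overlap for 1% of genes tested, with TgGRK5-MI lower for 0.42% and higher for 0.584%. Adra1b was the receptor gene of this kind among the 4 tested. All 4 receptor genes had fold changes below 0, with a median of -0.46, while 7586 of the 15232 genes did so, with a median of 0.00.

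The libraries differed in their content of cardiomyocyte RNA, so the receptor genes were also set against a list of 10 cardiomyocyte markers such as Myh6, Tnnt2 and Actn2. Of these markers 7 had log2 fold changes below 0 and 3 above, from -0.93 (Ryr2, unadjusted p = 0.00902) to 0.35 (Myl2). Their sum follows mainly the most abundant ones, such as Myh6 (-0.48), Actc1 (0.12) and Tnnt2 (-0.05). It is therefore not a neutral measure of cardiomyocyte content, and scaling to single markers was not tested. The summed markers ranged from 50629 to 131655 CPM in NLC-MI and from 53337 to 104645 CPM in TgGRK5-MI. They were highest in NLC-MI replicate 5, which also had the highest Adra1b value. Per 10000 CPM of these markers, a measure added after the data were seen, Adra1b reached 2.88 ± 0.65 CPM in the NLC-MI libraries and 1.47 ± 0.27 CPM in those of TgGRK5-MI (SD, n = 5). The groups did not overlap on this scale either, at 2.32 to 3.96 against 1.11 to 1.84 (exact two-sided permutation test, p = 0.00794). Without NLC-MI replicate 5 the log2 fold change of Adra1b was -0.85, and it was -1.55 with a covariate of Xist and Y-linked expression. In every library Xist was at most 0.916 CPM and the summed Y-linked genes were at least 158 CPM. This covariate therefore holds no contrast between the sexes, and fits with it are not adjusted for sex. In RNA from many cells, fewer cells of a type and less RNA per cell cannot be told apart.

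Adra1a (ENSMUSG00000045875, chr14:66635251-66771168, plus strand), the other main alpha1 gene of cardiomyocytes, lay at 5.46, 8.54, 10.5, 6.01 and 19.2 CPM in NLC-MI replicates 1 to 5. In TgGRK5-MI replicates 1 to 5 it lay at 12.3, 5.67, 13.9, 5.28 and 6.82 CPM. The groups overlapped almost fully, and in each group the library with the most cardiomyocyte marker RNA had the highest Adra1a level. The log2 fold change was -0.17 (95% interval -1.02 to 0.67, standard error 0.39), with an adjusted p of 1 by edgeR's quasi-likelihood test. The interval reaches down to -1.02, so equal levels were not shown. Without NLC-MI replicate 5 the fold change was 0.21, on the other side of 0, and with the covariate of Xist and Y-linked expression it was -0.94 (unadjusted p = 0.0589). Per 10000 CPM of the cardiomyocyte markers, Adra1a reached 1.16 ± 0.26 CPM in the NLC-MI libraries and 1.15 ± 0.27 CPM in those of TgGRK5-MI (SD, n = 5).

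The balance of the receptor genes within single libraries was also described. The ratio of Adra1b to Adra1a, per length, ran from 4.95 to 9.47 in the NLC-MI libraries and from 2.73 to 4.43 in the TgGRK5-MI libraries, without overlap. With the longest transcript as the length it ran from 2.47 to 4.72 and from 1.36 to 2.21, again without overlap. By exon length, the ratio of Adra1b to Adrb1 ran from 1.29 to 2.76 and from 0.904 to 2.04, with overlap. Adra1b made up 43.9 to 61.4% of the summed per-length level of the 8 genes in NLC-MI libraries and 34.6 to 49.97% in TgGRK5-MI libraries. These ratios were formed after the values of the genes were seen and are given without a test.

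Adra1d (ENSMUSG00000027335, chr2:131545850-131562283, minus strand), the third alpha1 gene, had between 3 and 57 counts in a library. It lay at 1.28, 2.31, 1.57, 2.39 and 2.36 CPM in NLC-MI replicates 1 to 5 and at 1.83, 1.61, 2.61, 0.323 and 1.34 CPM in TgGRK5-MI replicates 1 to 5. TgGRK5-MI replicate 4 was at the detection floor, and the other libraries of both groups overlapped. The log2 fold change was -0.35 (95% interval -1.19 to 0.49, standard error 0.38), again with an adjusted p of 1 by edgeR's quasi-likelihood test. It was -0.13 without TgGRK5-MI replicate 4 and -0.58 without TgGRK5-MI replicate 3, the ends of the range over fits with 1 library left out. The antisense gene Gm14285 shares 147 exon bases with Adra1d, and with the strand setting not known reads there could belong to either gene.

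Adrb1 (ENSMUSG00000035283, chr19:56722199-56733113, plus strand), the gene of the main cardiac beta receptor, lay at 7.27, 12.8, 16.6, 13.1 and 16.7 CPM in NLC-MI replicates 1 to 5. In TgGRK5-MI replicates 1 to 5 it lay at 11.0, 8.20, 12.8, 6.79 and 5.75 CPM. The groups overlapped, since NLC-MI replicate 1, the library with the least cardiomyocyte marker RNA, lay among the TgGRK5-MI values. NLC-MI replicate 2 (12.75 CPM) also lay just below TgGRK5-MI replicate 3 (12.78 CPM). The means were 13.3 ± 3.85 and 8.89 ± 2.92 CPM (SD, n = 5), with TgGRK5-MI at 66.9% of NLC-MI. The log2 fold change was -0.57 (standard error 0.27, 95% interval -1.17 to 0.02). By edgeR's quasi-likelihood test the unadjusted p of 0.0579 and the adjusted p of 1 both missed their thresholds, as did the exact two-sided permutation test (p = 0.0873). With 1 library left out, edgeR's unadjusted p ran from 0.0128 (without NLC-MI replicate 1) to 0.132 (without TgGRK5-MI replicate 5). It was 0.0474 without TgGRK5-MI replicate 1 and 0.0213 without TgGRK5-MI replicate 3. Every other fit of this kind gave an unadjusted p above 0.05. Per 10000 CPM of the cardiomyocyte markers, Adrb1 reached 1.64 ± 0.30 CPM in the NLC-MI libraries and 1.21 ± 0.25 CPM in those of TgGRK5-MI (SD, n = 5), still with overlap. The exact two-sided permutation test of these values gave p = 0.0476.

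**Figure D2:**
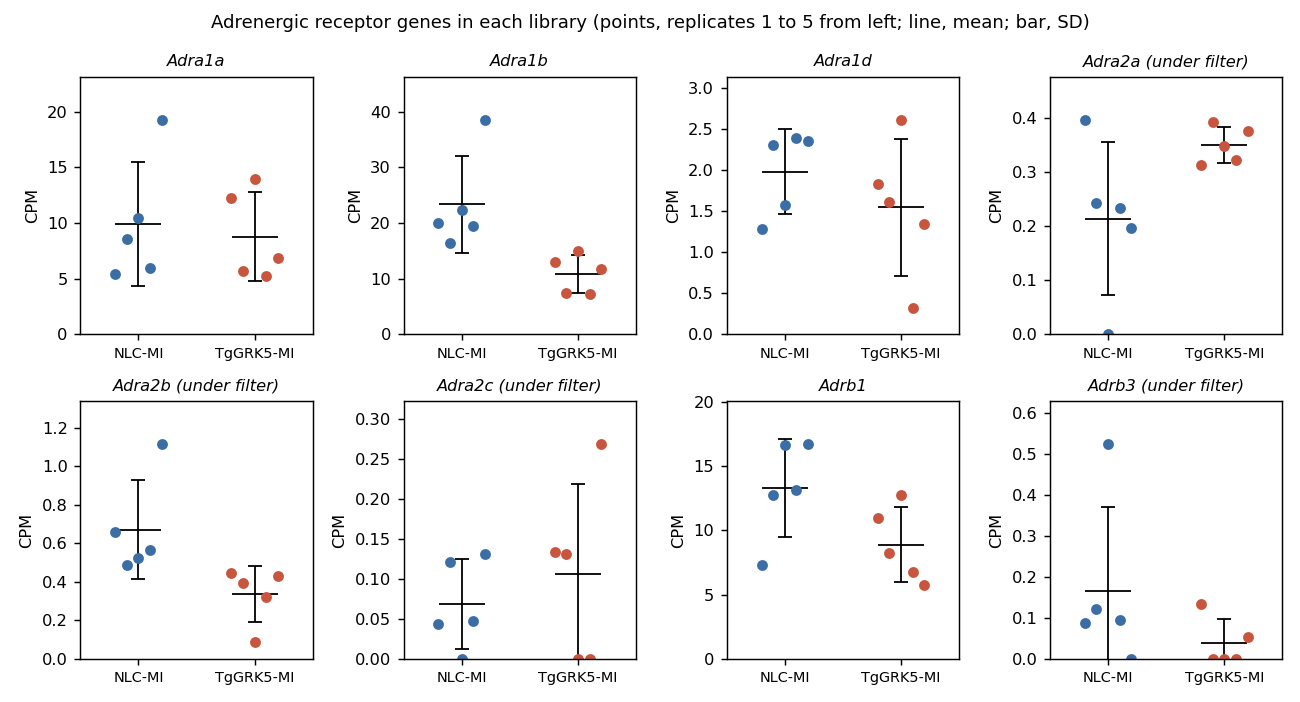
CPM (y axis, a separate scale for each gene) of the 8 receptor genes in NLC-MI (blue) and TgGRK5-MI (red), with 1 point for each library, a line for the mean of 5 libraries and a bar for the SD. The groups were apart for Adra1b (16.4 to 38.5 against 7.33 to 15.04 CPM) and Adra2b (0.486 to 1.11 against 0.0869 to 0.447 CPM), and overlapped for the other 6 genes. They did not overlap for 1% of all genes tested, a share that leaves out genes under the filter such as Adra2b.

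The remaining 4 genes did not pass the filter on low counts. Adra2b (ENSMUSG00000058620, chr2:127363208-127367221, plus strand) had 15, 12, 4, 12 and 17 counts in NLC-MI replicates 1 to 5 and 10, 9, 1, 3 and 8 counts in TgGRK5-MI replicates 1 to 5. Scaled to library size these were 0.669 ± 0.256 CPM in the controls and 0.336 ± 0.147 CPM in the transgenic libraries (SD, n = 5), and the groups did not overlap. The fit without the filter gave -0.88 on the log2 scale (95% interval -1.79 to 0.02, standard error 0.42), with an adjusted p of 0.869 by edgeR's quasi-likelihood test. The exact two-sided permutation test gave p = 0.00794, while per CPM of the cardiomyocyte markers it gave p = 0.111. The unadjusted p of the fit was 0.0547 with all libraries and ran from 0.0428 (without NLC-MI replicate 2) to 0.146 (without NLC-MI replicate 5) with 1 library left out. Each value rests on at most 17 counts, and TgGRK5-MI replicate 3 on 1. How often groups fail to overlap among genes under the filter was not counted.

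Adra2a (ENSMUSG00000033717, chr19:54044151-54048982, plus strand) had 9, 6, 0, 5 and 3 counts in NLC-MI replicates 1 to 5 and 7, 9, 4, 3 and 7 counts in TgGRK5-MI replicates 1 to 5. The means were 0.214 ± 0.142 and 0.351 ± 0.034 CPM (SD, n = 5), with the highest single value in NLC-MI replicate 1 and overlap of the groups. The fit without the filter gave 0.52 ± 0.49 on the log2 scale (standard error) with an adjusted p of 0.869 by edgeR's quasi-likelihood test, and the exact two-sided permutation test gave p = 0.0476. The permutation test includes the 0 counts of NLC-MI replicate 3, the library with the fewest counts. Its detection floor of 0.393 CPM was above the TgGRK5-MI mean, so this 0 does not show a lower level. Adra2c (ENSMUSG00000045318, chr5:35278319-35281763, plus strand) had 1, 3, 0, 1 and 2 counts in NLC-MI and 3, 3, 0, 0 and 5 counts in TgGRK5-MI. Adrb3 (ENSMUSG00000031489, chr8:27225776-27250616, minus strand), the gene of the beta3 receptor of adipocytes, had 2, 3, 4, 2 and 0 counts in NLC-MI and 3, 0, 0, 0 and 1 counts in TgGRK5-MI. Adrb3 shares 839 exon bases with the antisense gene Gm45470. At these counts no difference in Adra2c or Adrb3 was detectable, and no fold change is given.

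The estimates for Adra1b, Adrb1 and Adra2b stayed below 0 when each library was left out in turn and under every other fit tried. For Adra1b they ran from -1.25 to -0.85 over the fits with 1 library left out, with unadjusted p-values from 0.00132 to 0.00544. For Adrb1 the same fits gave -0.75 to -0.45, and for Adra2b -1.04 to -0.65.

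**Figure D3:**
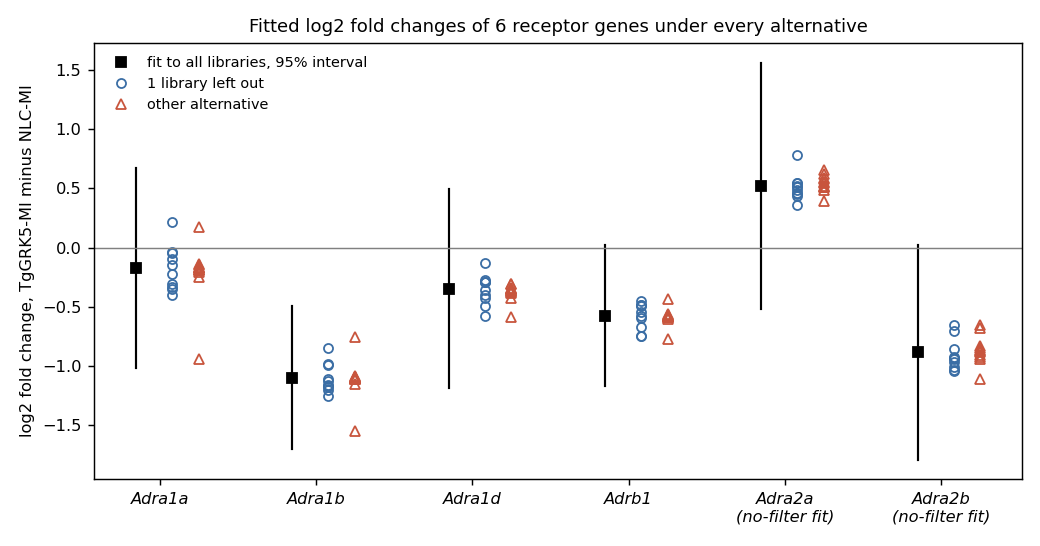
Log2 fold change, TgGRK5-MI minus NLC-MI (y axis), of the 6 receptor genes with enough counts for a fit, with squares and lines for the fit to all 10 libraries and its 95% interval, circles for fits without 1 library and triangles for the other alternatives. Only the interval of Adra1b (-1.70 to -0.50) lay wholly below 0, and Adra1a had values on both sides of 0.

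The genes whose log2 CPM followed each receptor gene most closely over the 10 libraries were listed as a description. For Adra1b these were Cntn5 (Pearson r = 0.979), Wif1 (r = 0.967) and the unnamed transcript gene Gm35082 (r = 0.932). After each group was centred on its own mean, the correlations were 0.948, 0.938 and 0.853, in the same libraries that served to pick the genes. Cntn5, a neuronal adhesion molecule, and Wif1, a secreted Wnt inhibitor, were lower in TgGRK5-MI. Their log2 fold changes were -1.44 (unadjusted p = 0.00359) and -1.71 (unadjusted p = 0.000259) by edgeR's quasi-likelihood test. Genes picked to follow Adra1b over both groups tend to share its group difference, so these p-values are no separate evidence. For Adra1a the closest genes were Aldh6a1 (r = 0.974), with a log2 fold change of -0.18, and Tfdp2 (r = 0.969). For Adrb1 they were Gtpbp1 (r = 0.977), Grip2 (r = 0.955) and Tspyl4 (r = 0.945), and for Adra1d Pus1 (r = 0.948), Tmcc2 (r = 0.945) and Kcnn1 (r = 0.922). The libraries share their depth and cardiomyocyte content across all genes, and these were the highest of all tested genes with a mean of at least 1 CPM.

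Noradrenaline, a ligand of the receptors, was not measured, and transcripts in cardiomyocyte RNA do not give its supply. The genes that make, carry and break it down were next examined as transcripts only. Of 17 such genes 9 were tested, 3 were lower and 1 was higher at an unadjusted p under 0.05, with a median log2 fold change of -0.28. Ddc, the decarboxylase that makes dopamine, ranged from 3.27 to 7.27 CPM in NLC-MI libraries and from 1.51 to 3.05 CPM in TgGRK5-MI libraries, without overlap. Its log2 fold change was -1.06 (unadjusted p = 0.00311). The vesicular monoamine transporter gene Slc18a1 (-1.08, unadjusted p = 0.0329) and the extraneuronal monoamine transporter gene Slc22a3 (-1.02, unadjusted p = 0.0272) were also lower, with overlapping groups. None of the genes of this list or of the lists that follow passed the adjusted threshold. The counts of each list stand beside those of all genes tested, of which 2.08% were lower and 1.77% higher at an unadjusted p under 0.05. Of all 15232 genes, 7586 had fold changes below 0.

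Among the signalling partners of alpha1 receptors (Gq, phospholipase C and protein kinase C genes), 15 of 16 were tested, 11 had fold changes below 0, and the median was -0.17. One was lower at an unadjusted p under 0.05, Rgs2, a regulator that speeds the shut-off of Gq, with a log2 fold change of -0.57 (unadjusted p = 0.0428). Gnaq itself, the gene of the Gq alpha subunit, had 44.0 ± 8.38 CPM in the controls and 43.8 ± 6.45 CPM in the transgenic libraries (SD, n = 5). Of 10 Gi-linked genes 8 were tested, with a median of 0.02, and Kcnj3, a subunit of the Gi-gated potassium channel, was lower (-0.86, unadjusted p = 0.0356).

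All 23 genes of the beta receptor pathway were tested, of which 16 had fold changes below 0, 5 were lower and 0 were higher at an unadjusted p under 0.05, with a median of -0.12. The 5 were the adenylyl cyclase genes Adcy6 (-0.63, unadjusted p = 0.0136) and Adcy9 (-0.60, unadjusted p = 0.0391), the phosphodiesterase gene Pde3a (-0.65, unadjusted p = 0.00311), the L-type calcium channel gene Cacna1c (-0.77, unadjusted p = 0.0122) and the ryanodine receptor gene Ryr2 (-0.93, unadjusted p = 0.00902). Adcy6 and Ryr2 are expressed at high levels in cardiomyocytes, and Ryr2 ranged from 715 to 1970 CPM in NLC-MI libraries and from 528 to 1016 CPM in TgGRK5-MI libraries. The groups overlapped for each of these 5 genes. Gnas, the gene of the Gs alpha subunit, was at 1073 ± 176 CPM and 1077 ± 176 CPM (SD, n = 5) in the respective groups.

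Of 18 genes of receptor kinases, arrestins and receptor trafficking, 9 had fold changes below 0 and 9 above, with a median of 0.00. Grk3, a receptor kinase that like Grk2 is recruited by G protein beta-gamma subunits, was the only one with an unadjusted p under 0.05. It lay at 10.9 to 16.0 CPM in NLC-MI and at 18.2 to 23.3 CPM in TgGRK5-MI, without overlap, and its log2 fold change was 0.57 (unadjusted p = 0.00334). Grk2 had a log2 fold change of -0.05, and Arrb1, the gene of beta-arrestin 1, one of -0.04.

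**Figure D4:**
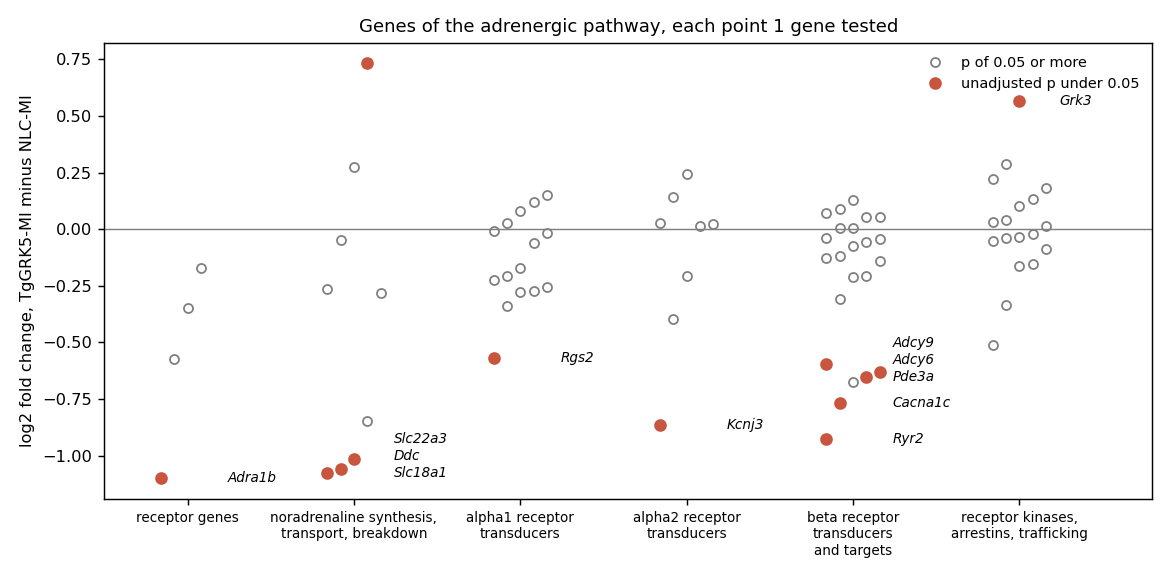
Log2 fold change, TgGRK5-MI minus NLC-MI (y axis), of each tested gene of the receptor list and of 5 lists of the adrenergic pathway (x axis), with filled points for an unadjusted p under 0.05 and symbols beside those named in the text. The lowest filled point was Adra1b (-1.10), and Grk3 (0.57) was a filled point above 0.

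Markers of other cell types were present in every library and varied between them. Their leading genes are given with log2 fold changes, none of which passed an unadjusted p of 0.05 except where a p is stated. Fibroblast markers, led by Col3a1 (-0.10) and Col1a1 (-0.15), summed to 4082 to 24224 CPM in NLC-MI and 4231 to 24916 CPM in TgGRK5-MI, with the lowest sum in NLC-MI replicate 5, where Adra1b, Adra1a and Adrb1 were highest. Smooth muscle and pericyte markers ranged from 1023 to 1912 and from 1281 to 2097 CPM, and endothelial markers, led by Cdh5 (0.01) and Pecam1 (0.12), from 764 to 1437 and from 732 to 1530 CPM, in the respective groups. Leukocyte markers, led by Lyz2 (0.41) and Csf1r (0.22), ranged from 523 to 1542 CPM in NLC-MI and from 862 to 1754 CPM in TgGRK5-MI, and all 9 of those tested had fold changes above 0, none with an unadjusted p under 0.05. Neuron and Schwann cell markers, led by Tubb3 (-0.30) and Stmn2 (0.17), stayed between 18.3 and 77.4 CPM. Adipocyte markers, led by Adig and Cfd, summed to at most 1.74 CPM, with Lep at 0. Among the marker genes that passed the filter on low counts, Ryr2 and Abcc9 (-0.67, unadjusted p = 0.0314), a potassium channel subunit of pericytes that cardiomyocytes also express, had an unadjusted p under 0.05. Among those under the filter, Plin1 of adipocytes had 0 to 1 counts in the NLC-MI libraries and 1 to 4 in the TgGRK5-MI libraries (unadjusted p = 0.0221 without the filter). The part of these other cells in the receptor values was not tested beyond the scaling to cardiomyocyte markers given above.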

How the data were processed

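The authors deposited a table of raw counts, whole numbers for each Ensembl gene in each of 10 libraries, without normalization. The submitters' processing notes name Bowtie2, RSEM 1.2.31, DESeq2 and the mm10 build without saying what each did, so the counts may be rounded RSEM estimates. The libraries were made with the Illumina TruSeq RNA Library Prep Kit v2, and the strand setting and annotation release are not given in the sources used here. The table covered 51789 genes, of which 51596 had a symbol in GENCODE M21 and 28506 a total above 0, and 0 columns could not be mapped to a library.

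Groups came from the sample labels. In R 4.3.3, edgeR 4.0.16 was run with TMM factors, filterByExpr by group, the quasi-likelihood test (legacy=FALSE) and Benjamini-Hochberg adjustment over 15232 genes. The threshold was an adjusted p under 0.10, the false discovery rate the study used, beside an unadjusted p under 0.05 for counts of genes. Unadjusted p-values given without a test name are from edgeR. Genes under the filter were read from a fit without it. For each receptor gene an exact two-sided permutation test of the mean log2 CPM (prior count of 2) enumerated every division of the 10 libraries into groups of 5. With 1 mouse per library, p-values measure the spread between these mice. Floors and counts carry counting error only.

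The rule for the members uses gene names alone, but the choice of this gene family and of the gene lists was made with earlier results of these data known. The genes named were the receptor genes, Grk5, every list gene with an unadjusted p under 0.05 (for a list without one, the 2 of highest mean CPM), and up to 3 genes most correlated with each tested receptor gene. Dbh, Th, Gnaq, Gnas, Grk2, Arrb1 and Pnmt were named outside that rule, after their values were seen. One symbol of the lists was matched by an alias. Sequences, motifs and shared 50-base stretches were read from the RefSeq and GENCODE tables.

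The alternatives were DESeq2 1.42.0, RLE size factors, no scaling beyond library size, limma-voom (limma 3.58.1) with sample quality weights, a robust fit, no filter, at least 10 counts in every library, 1 surrogate variable (sva 3.50.0), a covariate of Xist and Y-linked expression, the replicate number as a block, and each library left out in turn. Added after seeing the data were DESeq2 on all genes, library size as a covariate, the fit without the 3 libraries of fewest counts, the legacy fit, and receptor CPM divided by that of the cardiomyocyte markers. On simulated counts of 15078 genes with 200 changed, edgeR recovered 35% of the genes changed by 1 and 88% of those changed by 2 on the log2 scale. Of its calls 10.2% were false, against 29.8% for DESeq2 and 8.8% for limma-voom. The counts were drawn once with dispersions estimated by edgeR, so these shares are not a neutral comparison of the methods. Some items are not reported.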

Additional observations from a re-analysis of the deposited data

Results flagged for a closer look

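Adra2b in TgGRK5-MI replicate 3 stood apart from its group. With 1 count (0.0869 CPM) it lay below the other 4 libraries of the group, at 0.323 to 0.447 CPM, and on the log2 CPM scale its gap to the nearest of them was 0.757 of the range of the group, above Dixon's critical value of 0.71 for 5 libraries. On the CPM scale the same ratio was 0.656, below that value. The check was made on log2 CPM for 16 groups of values, and chance flags about 1 group in 20. The cause was not tested.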

How the results depend on the processing

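Adra1b kept a log2 fold change below 0 and an unadjusted p under 0.05 in all 24 alternatives, with adjusted p-values from 0.0536 to 0.999. It passed the adjusted threshold only with DESeq2 (-1.11, adjusted p = 0.0536 on the same genes and 0.0593 on all genes). Its fold change was -0.76 with limma-voom and -1.15 without the 3 libraries of fewest counts. Adrb1 had an unadjusted p under 0.05 in 8 of 24 alternatives. With Adrb1 as the second, the receptor genes with an unadjusted p under 0.05 numbered 2 rather than 1 under some settings. These were library size alone, DESeq2 on either set of genes, no filter and 1 surrogate variable. With 1 library left out the receptor genes numbered 1 to 2. Without NLC-MI replicate 3 there were 2, although the unadjusted p was 0.121 for Adrb1, 0.728 for Adra1a and 0.339 for Adra1d. The second was then a gene that the filter had removed from the main fit. Adra1a changed sign with limma-voom (0.17) and ran from -0.40 to 0.21 with 1 library left out, while the covariate of Xist and Y-linked expression gave -0.94 for Adra1a, -0.59 for Adra1d and -1.11 for Adra2b. The level per length of Adra1a was 2.32 and 2.05 with the longest transcript. The 12 genes with an adjusted p under 0.10 became 68 with DESeq2, 69 with DESeq2 on all genes, 50 with limma-voom, 22 with 1 surrogate variable, 20 with library size as a covariate, 7 with the legacy fit, 6 without the 3 libraries of fewest counts, 2 with the covariate of Xist and Y-linked expression, and 3 to 10 with 1 library left out. The 586 genes with an unadjusted p under 0.05 became 1810 with limma-voom (1138 higher and 672 lower, against 269 and 317), 1163 without a filter, 1037 with 1 surrogate variable, 947 with library size as a covariate, and 457 to 1069 with 1 library left out. The cause of these shifts was not tested. Adra1d had no fit with at least 10 counts in every library, and the fold changes given for Adra2a and Adra2b are all from fits without a filter.

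The replicate numbers are shared by the groups but do not pair the mice. Over genes, deviations of same-numbered libraries correlated at 0.0717, 0.662, 0.381, -0.341 and 0.0848. Under a block of replicate number, 8 genes had an adjusted p under 0.10, and Adra1b had a log2 fold change of -1.09 (unadjusted p = 0.000703) and Adrb1 one of -0.58 (unadjusted p = 0.0778), and 1 of 5 pairs correlated best with its own number.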

Other observations

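The noradrenaline list also held 8 genes under the filter on low counts, of which Slc6a3 and Slc22a2 had no counts in any library. Pnmt, which turns noradrenaline into adrenaline, had 3 to 26 counts in the NLC-MI libraries and 1 to 11 in the TgGRK5-MI libraries. When no filter was applied, its log2 fold change was -1.14 (unadjusted p = 0.0261), with an adjusted p of 0.869 by edgeR's quasi-likelihood test, and the groups overlapped. Dbh, which makes noradrenaline from dopamine and was tested, had 2.99 ± 1.91 CPM in the controls and 1.63 ± 0.63 CPM in the transgenic libraries (SD, n = 5). Th, the rate-limiting enzyme of the pathway, had 10 counts in each group in all, so a difference in Th was not detectable at this depth. All 3 genes of the synthesis steps from dopa to adrenaline thus had fold changes below 0, of which Ddc alone was past an unadjusted p of 0.05 in the filtered fit.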
